A study of Mus musculus with 9 samples.

Results

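The genes described here are 4 of the 22180 genes read from the arrays: Tnfsf11, Tnfrsf11b, Csf1 and Il6. They were chosen by name, as the products through which bone-forming cells act on osteoclasts, the cells that resorb bone, and each was read from the 1 transcript cluster (the probe group for a transcript region) that carried its symbol alone. RNA levels came from 9 microarrays of primary osteoblasts that enzymes had released from the calvaria, the skull roof, of C57BL/6J mice 7 to 10 days old. All cells were at passage 2, were differentiated from day 3 with β-glycerophosphate and ascorbic acid, and were kept without serum for 24 h from day 10, so this background was common to every group. They then received vehicle, 100 nM human parathyroid hormone hPTH(1-34), or 1 µM of the bovine fragment bPTH(7-34) for 4 h, with 3 arrays per group. The peptide bPTH(7-34) is an amide that starts at residue 7 of the hormone, with D-tryptophan in position 12 and tyrosine in position 34. Each replicate came from its own preparation of cells. The labels do not give the number of mice behind a preparation, nor whether a preparation was divided among the treatments.

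Tnfsf11 encodes RANKL, the ligand that osteoblast-lineage cells present to osteoclast precursors, where it binds the receptor RANK, encoded by Tnfrsf11a, and drives osteoclast formation through NF-κB and NFATc1. Tnfrsf11b encodes osteoprotegerin (OPG), a secreted decoy receptor that binds RANKL and keeps it from RANK. Csf1 encodes M-CSF, which sustains osteoclast precursors through its receptor Csf1r, and Il6 encodes interleukin-6, a cytokine that signals through gp130 and acts on both osteoblasts and osteoclast precursors. Parathyroid hormone acts on osteoblasts through the receptor Pth1r, largely by raising cAMP. hPTH(1-34) is an agonist of that receptor, and bPTH(7-34) is known as an antagonist of the cAMP response.

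The values are log2 levels, and a probe group's level holds the brightness of its own probes, so levels were compared between groups within a gene and never between genes. Array medians ran from 1.67 to 1.76 on the log2 scale, and correlations across all clusters were 0.977 to 0.982 within groups and 0.972 to 0.985 between groups. A limit of background of 1.69 was taken from 1108 clusters for olfactory receptors, as the 95th percentile of their log2 means in the vehicle arrays, and all 4 genes lay above it in every group. Of 9 measured osteoblast markers, Alpl, Col1a1, Col1a2, Ibsp, Pth1r and Phex were above that limit in all 3 groups. Sp7, a transcription factor that defines the lineage, was above it with bPTH(7-34) alone, and the osteocalcin gene Bglap was below it throughout. No lymphocyte marker of 7 measured was above the limit in any group, while 8 of 9 macrophage markers and 8 or 9 of 11 osteoclast markers were. So were 5 of 6 skeletal muscle markers, 4 or 5 of 6 chondrocyte markers and 3 of 6 endothelial markers. The limit lay within the range of the array medians, so levels above it are weak evidence of a gene or cell type. In these bulk samples, fewer cells of a type and less RNA per cell cannot be told apart.

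The 250 bases before the transcription start are shown for those of the 4 genes that differed most, Tnfsf11 and Il6. Both are known targets of cAMP signalling. The Tnfsf11 sequence spans chr14:78308044-78308293 on the minus strand, and the Il6 sequence spans chr5:30012864-30013113 on the plus strand, both from RefSeq on GRCm38.p6 and written 5′ to 3′ along the gene. Capitals mark matches to the motifs searched.
Tnfsf11: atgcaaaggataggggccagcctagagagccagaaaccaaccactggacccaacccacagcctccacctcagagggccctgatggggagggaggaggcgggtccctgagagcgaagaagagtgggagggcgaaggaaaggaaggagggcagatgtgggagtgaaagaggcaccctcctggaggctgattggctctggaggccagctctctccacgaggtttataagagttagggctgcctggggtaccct
Il6: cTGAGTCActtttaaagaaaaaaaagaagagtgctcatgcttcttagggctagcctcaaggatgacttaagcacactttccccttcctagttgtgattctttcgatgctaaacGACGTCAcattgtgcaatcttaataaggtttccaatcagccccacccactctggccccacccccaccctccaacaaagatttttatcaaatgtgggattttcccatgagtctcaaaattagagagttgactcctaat
The motifs were searched on both strands: the cAMP response element TGACGTCA, its first 7 letters TGACGTC, the half-site TGACG, and the AP-1 site TGAGTCA. The first 3 overlap one another by construction. In the Il6 window, TGACGTC lay on the minus strand 137 to 131 bases before the start and contained the half-site match. TGAGTCA lay on the plus strand 249 to 243 bases before the start. The full element TGACGTCA had no match there. Of 32851 promoter windows of this length, 2.78% held TGACGTC, 17.8% the half-site, 4.46% TGAGTCA and 1.55% the full element. The Tnfsf11 window, with 60.4% G and C against 42.8% for Il6, held none of the 4 motifs, and neither did the Csf1 window.

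The first question was what each peptide did to the RANKL transcript. In the vehicle arrays the log2 level of Tnfsf11 was 4.92, 4.36 and 3.58 (mean 4.29 ± 0.67 SD, n = 3). With hPTH(1-34) it was 6.20, 7.42 and 6.96 (6.86 ± 0.62), and with bPTH(7-34) it was 4.94, 4.94 and 3.82 (4.57 ± 0.65). Every hPTH(1-34) array was higher than every array of the other groups, and the bPTH(7-34) arrays lay within or just above the span of the vehicle arrays. Of all clusters, 6.08% were higher without overlap with hPTH(1-34) than with vehicle, and 5.99% than with bPTH(7-34). Tnfsf11 rose 5.95-fold with hPTH(1-34) (log2 change 2.57 ± 0.43 SE, 95% interval 1.60 to 3.55, adjusted p = 0.0468 by limma), the fourth largest rise of all clusters tested. It was 1 of 106 clusters called among 23521, a background of 0.451% (0.31% higher and 0.14% lower). The smallest difference between an hPTH(1-34) and a vehicle array was 1.28, against a spread within groups of 0.65 (residual SD), which was larger than that of 99.3% of clusters. The call was close to its threshold: adjusted p was 0.0597 to 0.209 without any one vehicle array, 0.205 and 0.202 without hPTH(1-34) array 2 or 3, 0.086 and 0.0867 without bPTH(7-34) array 1 or 2, and 0.156 when the 6 arrays were fitted alone. It was 0.0248 without hPTH(1-34) array 1 and 0.0499 without bPTH(7-34) array 3, and the change stayed between 2.22 and 2.90 whichever array was left out.

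With bPTH(7-34), the change of Tnfsf11 from vehicle was 0.28 ± 0.43 (95% interval -0.69 to 1.25, adjusted p = 0.999), which turned to -0.07 without vehicle array 3. No cluster of 23521 passed in this comparison (0%), and 780 (3.32%) had an unadjusted p under 0.05 by limma. That interval leaves room for a rise of up to 1.25, below the lower end of the interval for hPTH(1-34). Between the peptide groups the level differed by 2.29 ± 0.43 (4.90-fold, 95% interval 2.50 to 9.63), with an adjusted p of 0.0674 that missed the threshold, and the groups were 1.26 apart. In this comparison 109 clusters (0.463%) were called. The doses differed, so the values stand side by side and are no comparison of the peptides at a matched dose. Both comparisons with vehicle rest on the same vehicle arrays.

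Markers of fat cells had their highest values in the hPTH(1-34) group, although the groups overlapped. Their summed linear level over 5 measured genes was 265, 180 and 191 in the vehicle arrays, 481, 253 and 383 with hPTH(1-34), and 340, 213 and 248 with bPTH(7-34). Adipoq, Plin1, Cidec and Fabp4 were above the background limit in every group, Lep was not, and 0 of the 5 passed the test. All 5 changes with hPTH(1-34) against vehicle were above 0 (median 0.54), beside a median of 0 for all clusters. Of these, 2 had an unadjusted p under 0.05 by limma, as did 9.31% of all clusters. With bPTH(7-34), 3 of the 5 changes were above 0 (median 0.02). The order of the hPTH(1-34) arrays in this sum was the reverse of their order in Tnfsf11, with array 1 highest in the sum and lowest in Tnfsf11. The other groups did not share this: vehicle array 1 was highest in both. With bPTH(7-34), array 1 was highest in the sum and level with array 2 as the highest in Tnfsf11. The part of these cells in the result was not tested.

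**Figure D1:**
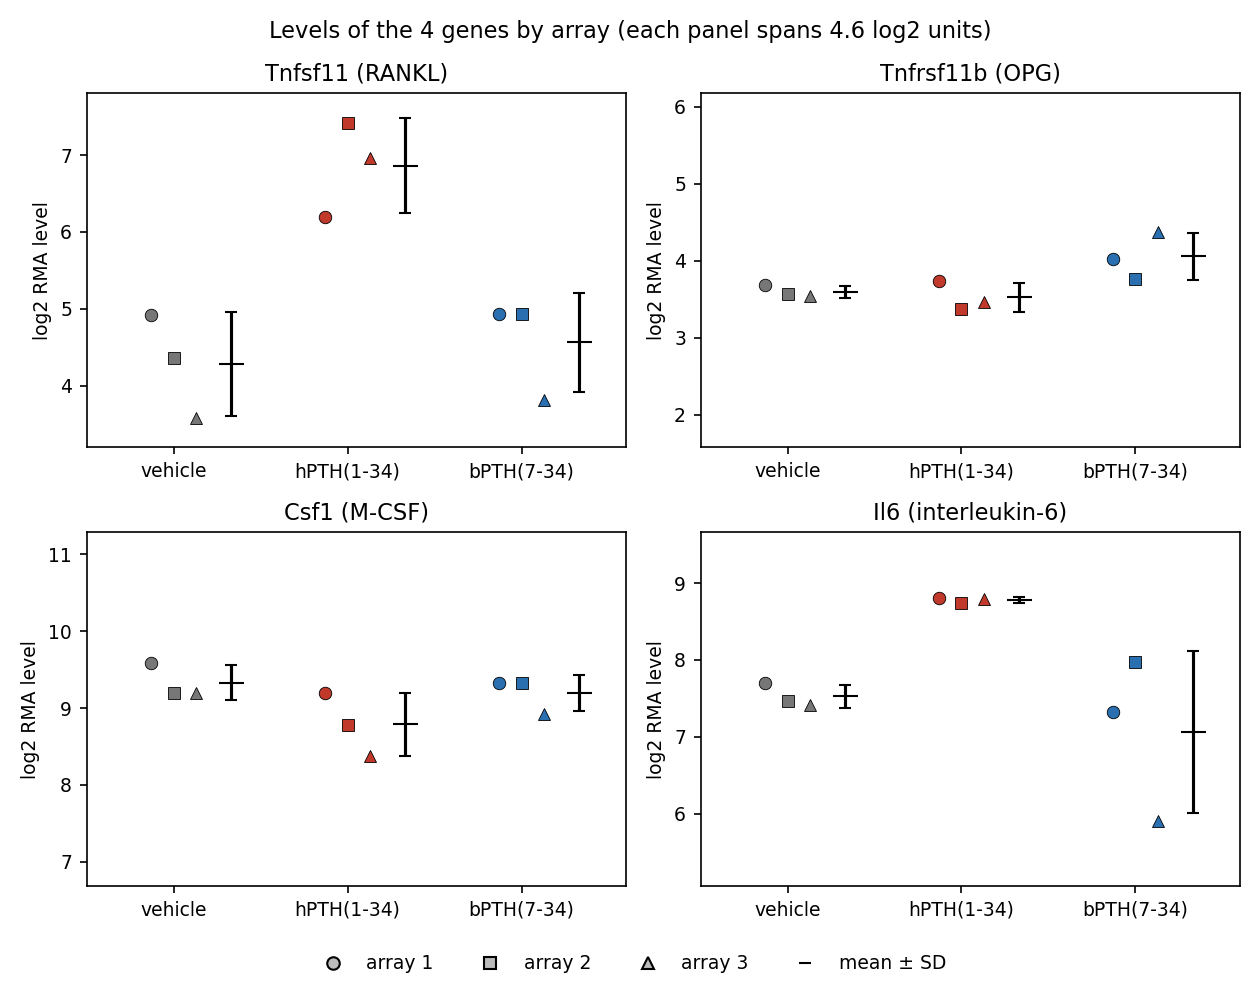
Log2 level (y axis) of each of the 4 genes in every array, by group (x axis), with the mean and SD of 3 arrays beside the points; all panels span the same number of log2 units. The 3 hPTH(1-34) arrays stand above all other arrays for Tnfsf11 and Il6, bPTH(7-34) array 3 is the lowest for Il6 and the highest for Tnfrsf11b, and the Csf1 groups overlap.

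The decoy receptor was then examined. The log2 level of Tnfrsf11b was 3.68, 3.57 and 3.54 with vehicle (3.60 ± 0.07 SD), 3.74, 3.37 and 3.47 with hPTH(1-34) (3.53 ± 0.19), and 4.03, 3.76 and 4.38 with bPTH(7-34) (4.06 ± 0.31). The vehicle and hPTH(1-34) arrays overlapped, whereas all 3 bPTH(7-34) arrays were above both. The change with hPTH(1-34) was -0.07 ± 0.16 (95% interval -0.43 to 0.29, adjusted p = 0.934 by limma), so neither a change of more than 0.43 downward nor one of more than 0.29 upward lay within the interval. With bPTH(7-34) the level was 0.46 ± 0.16 above vehicle (1.38-fold, 95% interval of the log2 change 0.10 to 0.82). Its unadjusted p of 0.0177 became 0.999 after adjustment over all clusters, and the call was not made. Without bPTH(7-34) array 3, the highest for this gene, the change was 0.30 (unadjusted p = 0.0653). The gap between these groups was 0.08, and 5.29% of all clusters had non-overlapping groups in this comparison, 2.9% with bPTH(7-34) the higher. From bPTH(7-34) to hPTH(1-34) the level was 0.53 ± 0.16 lower (log2 change -0.53, 95% interval -0.89 to -0.17, adjusted p = 0.281), with a gap of 0.02. Between the peptide groups, 11.1% of all clusters had non-overlapping groups, 5.1% with hPTH(1-34) the lower.

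The balance of ligand and decoy was followed as the log2 level of Tnfsf11 minus that of Tnfrsf11b on each array. Since both levels hold probe effects, only its shift between groups has a meaning, and it was described without a test. The difference was 1.24, 0.79 and 0.04 with vehicle (mean 0.69 ± 0.61 SD), 2.46, 4.05 and 3.49 with hPTH(1-34) (3.33 ± 0.81), and 0.91, 1.18 and -0.56 with bPTH(7-34) (0.51 ± 0.94). All 3 hPTH(1-34) arrays lay above all others, and the bPTH(7-34) arrays spread across and below the vehicle arrays. The shift from vehicle to hPTH(1-34) was 2.64 ± 0.65 SE, a 6.25-fold higher ratio, of which Tnfsf11 gave 2.57 and Tnfrsf11b 0.07. The shift from vehicle to bPTH(7-34) was -0.18 ± 0.65, made of 0.28 from Tnfsf11 and -0.46 from Tnfrsf11b, and it turned to 0.36 without bPTH(7-34) array 3 and to 0.10 without vehicle array 1. Between the peptide groups the shift was 2.82 ± 0.65 (7.08-fold), of which Tnfrsf11b gave 0.53. The ligand's own change thus made up nearly all of the shift from vehicle to hPTH(1-34), and the decoy had a share in the distance between the peptide groups.

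**Figure D2:**
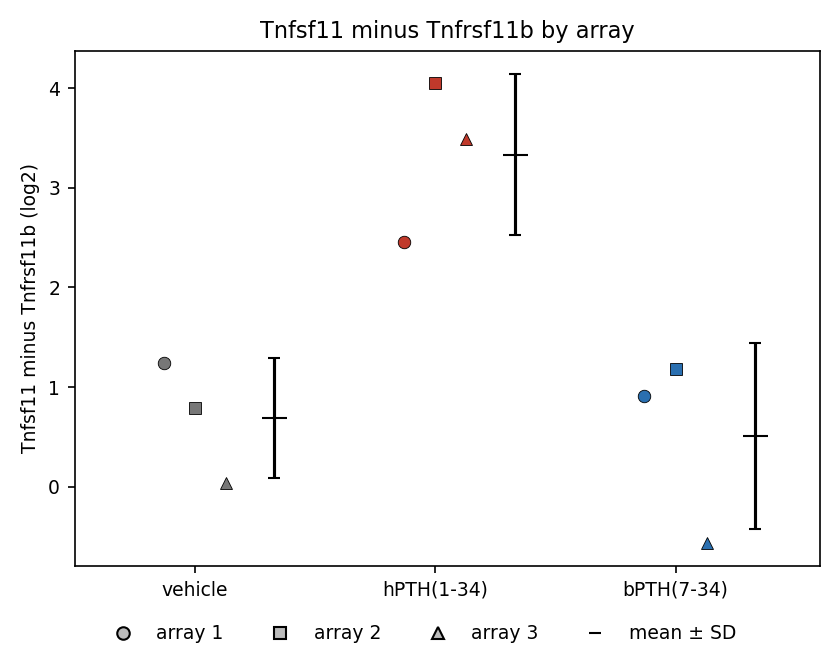
Log2 level of Tnfsf11 minus that of Tnfrsf11b (y axis) on each array, by group (x axis), with mean and SD of 3 arrays. The hPTH(1-34) arrays lie from 2.46 to 4.05 and the other 6 from -0.56 to 1.24; the zero of this scale has no meaning, since the genes have different probes.

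Of the cytokines, interleukin-6 showed the next largest difference. The log2 level of Il6 was 7.70, 7.47 and 7.41 with vehicle (7.53 ± 0.15 SD), 8.81, 8.74 and 8.79 with hPTH(1-34) (8.78 ± 0.04), and 7.32, 7.97 and 5.91 with bPTH(7-34) (7.07 ± 1.05). The hPTH(1-34) arrays were tightly placed above all others, and bPTH(7-34) array 3 lay far below every other array. The mean with hPTH(1-34) was 1.25 ± 0.41 above vehicle (2.38-fold, 95% interval 1.25 to 4.54). This missed the threshold (unadjusted p = 0.0136, adjusted p = 0.358 by limma), although the groups were 1.04 apart, as 6.08% of clusters also were without overlap in that direction. The fit shares 1 spread among the groups, and for Il6 that spread was 0.62 (residual SD), larger than in 99.1% of clusters. Without bPTH(7-34) array 3 the same change of 1.25 had an SE of 0.17 and an adjusted p of 0.0393, and in the 6 arrays alone an SE of 0.10 and an adjusted p of 0.0607. With bPTH(7-34) the change from vehicle was -0.46 ± 0.41 (95% interval -1.39 to 0.47, adjusted p = 0.999), and 0.12 without array 3. Between the peptide groups Il6 was 1.71 ± 0.41 higher with hPTH(1-34) (3.28-fold, adjusted p = 0.154), with a gap of 0.77, and 11.1% of clusters had groups apart in that comparison.

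For Csf1, the levels were 9.59, 9.20 and 9.19 with vehicle (9.33 ± 0.23 SD), 9.20, 8.78 and 8.38 with hPTH(1-34) (8.79 ± 0.41), and 9.32, 9.33 and 8.92 with bPTH(7-34) (9.19 ± 0.23). The order of the means was vehicle, bPTH(7-34) and hPTH(1-34), and neighbours in this order overlapped, as did vehicle and hPTH(1-34), at 9.19 and 9.20. Taken by array number, each hPTH(1-34) array was below the vehicle array, with differences of -0.39, -0.42 and -0.81. Whether the numbers mark shared preparations is not given. The change with hPTH(1-34) was -0.54 ± 0.21 (95% interval -1.02 to -0.06, unadjusted p = 0.0312, adjusted p = 0.461 by limma), and with bPTH(7-34) it was -0.14 ± 0.21 (-0.62 to 0.34, adjusted p = 0.999). Between the peptide groups it was -0.40 ± 0.21 (adjusted p = 0.623). The change with hPTH(1-34) was -0.34 without hPTH(1-34) array 3 and -0.75 without array 1, and the change with bPTH(7-34) was -0.0017 without bPTH(7-34) array 3 and -0.005 without vehicle array 1. The macrophage markers, whose cells respond to M-CSF, had summed linear levels over 9 genes of 459, 214 and 306 with vehicle, 488, 251 and 134 with hPTH(1-34), and 299, 355 and 152 with bPTH(7-34). In each peptide group array 3 was lowest in this sum and in Csf1, and in the vehicle group array 1 was highest in both. This was not particular to macrophage markers, since the summed level of 7 measured housekeeping genes had the same extremes. It was 7910, 6630 and 6640 with vehicle, 7820, 7120 and 6520 with hPTH(1-34), and 7210, 6890 and 6110 with bPTH(7-34). None of the macrophage markers but Mrc1 was below the background limit, and their part in the levels of Csf1 was not tested.

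**Figure D3:**
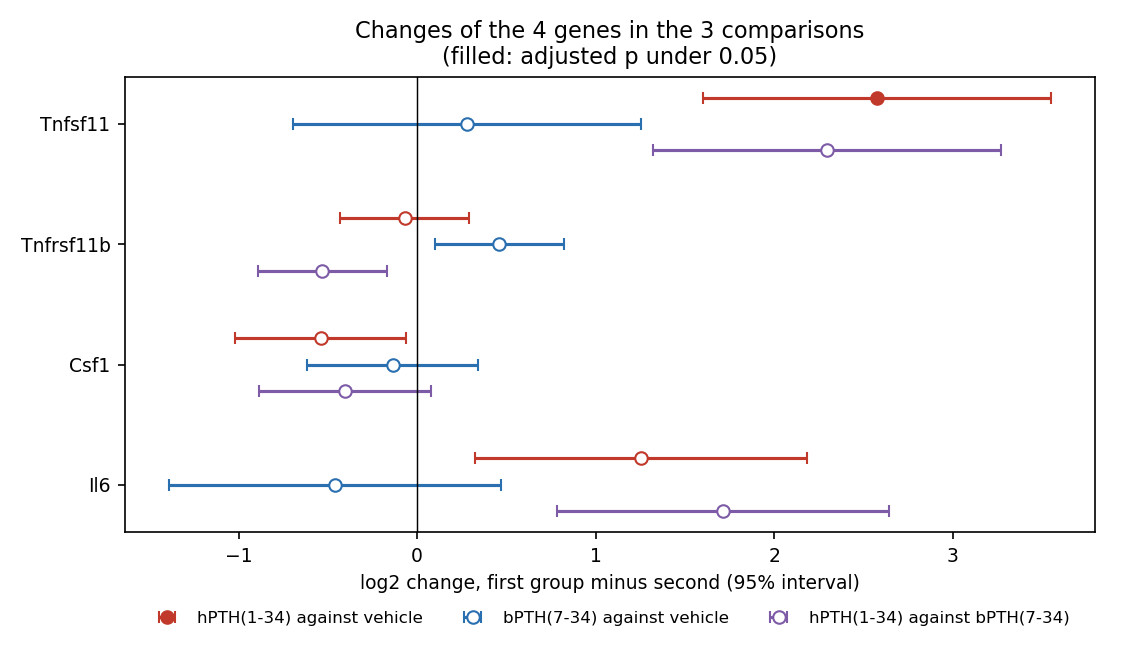
Log2 change (x axis, first group minus second) of each gene in the 3 comparisons, with the 95% interval from the limma fit of all 9 arrays; the filled point has an adjusted p under 0.05. Only Tnfsf11 with hPTH(1-34) against vehicle, at 2.57, is filled; the intervals for Il6 and Csf1 in that comparison exclude 0 before adjustment over all clusters.

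The genes around these signals were read from 7 lists, drawn up with results of these arrays known, with 125 of 136 genes measured. With hPTH(1-34), 4 rose and 1 fell, which is 4% of them beside the 0.451% of all clusters. The lists were not matched to all clusters in level. In fits limited to a mean log2 of at least 3, 186 of 9562 clusters were called, and at 5, 182 of 5144. The median change of the listed genes was -0.01, beside 0 for all clusters. With bPTH(7-34), 0 of the 125 passed, as for all clusters. The 5 that passed were the vitamin D receptor Vdr, the cAMP-responsive factor Crem, the signal transducer Stat3, the sphingosine 1-phosphate receptor S1pr1 and the leukaemia inhibitory factor receptor Lifr.

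Among 26 measured regulators upstream of Tnfsf11 and Tnfrsf11b, 2 rose, 0 fell and 24 did not pass (median 0.04). Vdr, the nuclear receptor through which vitamin D raises RANKL, had levels of 7.06, 6.83 and 6.35 with vehicle, 8.63, 9.12 and 9.17 with hPTH(1-34), and 7.10, 7.05 and 6.58 with bPTH(7-34). As for Tnfsf11, the hPTH(1-34) arrays stood apart and array 3 was lowest in both other groups. Vdr rose by 2.23 ± 0.22 (4.68-fold, adjusted p = 0.00861 by limma), and adjusted p ranged up to 0.0693 when single arrays were left out. Crem rose by 0.67 ± 0.11 (adjusted p = 0.0442) from a low vehicle level of 2.25, and its adjusted p reached 0.201 on leaving out an array. The salt-inducible kinase gene Sik3, whose family restrains CREB coactivators, was 0.79 ± 0.15 higher (adjusted p = 0.0682). The hormone's receptor Pth1r had levels of 4.70, 4.36 and 4.94 with vehicle, hPTH(1-34) and bPTH(7-34), a change of -0.35 ± 0.19 with hPTH(1-34) (adjusted p = 0.638).

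In the interleukin-6 and gp130 family, 1 of 18 measured genes rose, 1 fell and 16 did not pass (median 0.14, and 13 of the 18 changes were above 0). Lifr, which pairs with gp130 to receive leukaemia inhibitory factor and oncostatin M, had levels of 8.40, 8.76 and 8.79 with vehicle, 7.63, 7.66 and 7.51 with hPTH(1-34), and 8.40, 8.65 and 8.82 with bPTH(7-34). It fell by 1.05 ± 0.14 with hPTH(1-34) (2.07-fold lower, adjusted p = 0.0237 by limma), and adjusted p reached 0.135 when an array was left out. Stat3, which carries the gp130 signal to the nucleus, rose from 8.74 ± 0.15 (SD) to 9.36 ± 0.11, by 0.62 ± 0.10 (adjusted p = 0.0474, and up to 0.202 on leaving out an array). The ciliary neurotrophic factor receptor gene Cntfr was 0.70 ± 0.18 higher (adjusted p = 0.215, but 0.00705 without hPTH(1-34) array 1), and gp130 itself, encoded by Il6st, 0.27 ± 0.10 higher (adjusted p = 0.415). The interleukin-6 receptor Il6ra changed by 0.22 ± 0.22, the ligand Lif by 0.36 ± 0.29, the oncostatin M receptor Osmr by 0.18 ± 0.14 and the feedback inhibitor Socs3 by 0.08 ± 0.23, with adjusted p from 0.739 to 0.953.

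On the receiving side of RANKL, 0 of 18 measured genes of the RANK, NF-κB and NFAT list passed (median -0.07). RANK itself, Tnfrsf11a, was below the background limit with vehicle, at 1.50, and little above it at 1.85 with hPTH(1-34) and 1.88 with bPTH(7-34). Lgr4, known as a second receptor for RANKL, was 0.51 ± 0.16 higher with hPTH(1-34) (adjusted p = 0.331). The death ligand Tnfsf10, which osteoprotegerin also binds, changed by 0.06 ± 0.28, and the kinase Map3k7 by 0.18 ± 0.11. Of 9 proteases and inhibitors tied to the release of RANKL from the cell surface, 0 passed. The sheddase Mmp14 was at 9.96, 9.95 and 9.90 in the 3 groups, Adam17 changed by -0.32 ± 0.12 (adjusted p = 0.451), Adam10 by 0.05 ± 0.08 and Timp1 by 0.15 ± 0.20.

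None of 7 genes of the M-CSF receptor and colony-stimulating factor list passed with hPTH(1-34) (median -0.09). Il34, the other ligand of the M-CSF receptor, had levels of 5.49, 5.20 and 5.30 with vehicle, 5.03, 4.84 and 4.55 with hPTH(1-34), and 5.29, 4.96 and 5.53 with bPTH(7-34). The hPTH(1-34) arrays were all below the vehicle arrays, and the change of -0.52 ± 0.17 did not pass (adjusted p = 0.347), in a comparison where 4.58% of clusters were lower without overlap. The receptor Csf1r changed by -0.01 ± 0.32, Csf2 by -0.12 ± 0.11 and Csf3 by 0.23 ± 0.23.

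Among 24 factors of contact and coupling between osteoblasts and osteoclasts, S1pr1 passed, a receptor for a lipid that guides osteoclast precursors. Its levels were 6.34, 6.80 and 6.68 with vehicle, 7.44, 8.20 and 7.96 with hPTH(1-34), and 6.51, 6.80 and 6.58 with bPTH(7-34), so the hPTH(1-34) arrays stood clear. S1pr1 rose by 1.26 ± 0.20 (adjusted p = 0.0378, and up to 0.18 on leaving out an array). Sphk1, which makes that lipid, was 1.34 ± 0.25 higher (adjusted p = 0.0689, but 0.0101 without hPTH(1-34) array 1), and Bmp2, at a low vehicle level of 2.45, changed by -0.45 ± 0.13 (adjusted p = 0.267). Of 23 genes on the list of other cytokines and chemokines, 0 passed against vehicle (median -0.13, and -0.16 with bPTH(7-34)). That list did not hold the chemokine Cxcl14, which is described below. The angiogenic factor Vegfa was 1.07 ± 0.20 above vehicle with hPTH(1-34) (adjusted p = 0.0691) and 1.20 ± 0.20 above bPTH(7-34), where it passed (adjusted p = 0.0446). The chemokine Ccl2 changed by -0.60 ± 0.31 (adjusted p = 0.61) and the prostaglandin receptor Ptger4 by -0.42 ± 0.22 (adjusted p = 0.622) with hPTH(1-34). Of these lists, Vdr, Crem, Stat3, S1pr1 and Vegfa were also called higher, and Lifr lower, with hPTH(1-34) than with bPTH(7-34), beside 0.463% of all clusters called. Each of these 6 calls was lost when some single array was left out, with an adjusted p of up to 0.0926 for Vdr, 0.116 for Lifr, 0.146 for Crem, 0.156 for Stat3, 0.161 for S1pr1 and 0.176 for Vegfa.

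**Figure D4:**
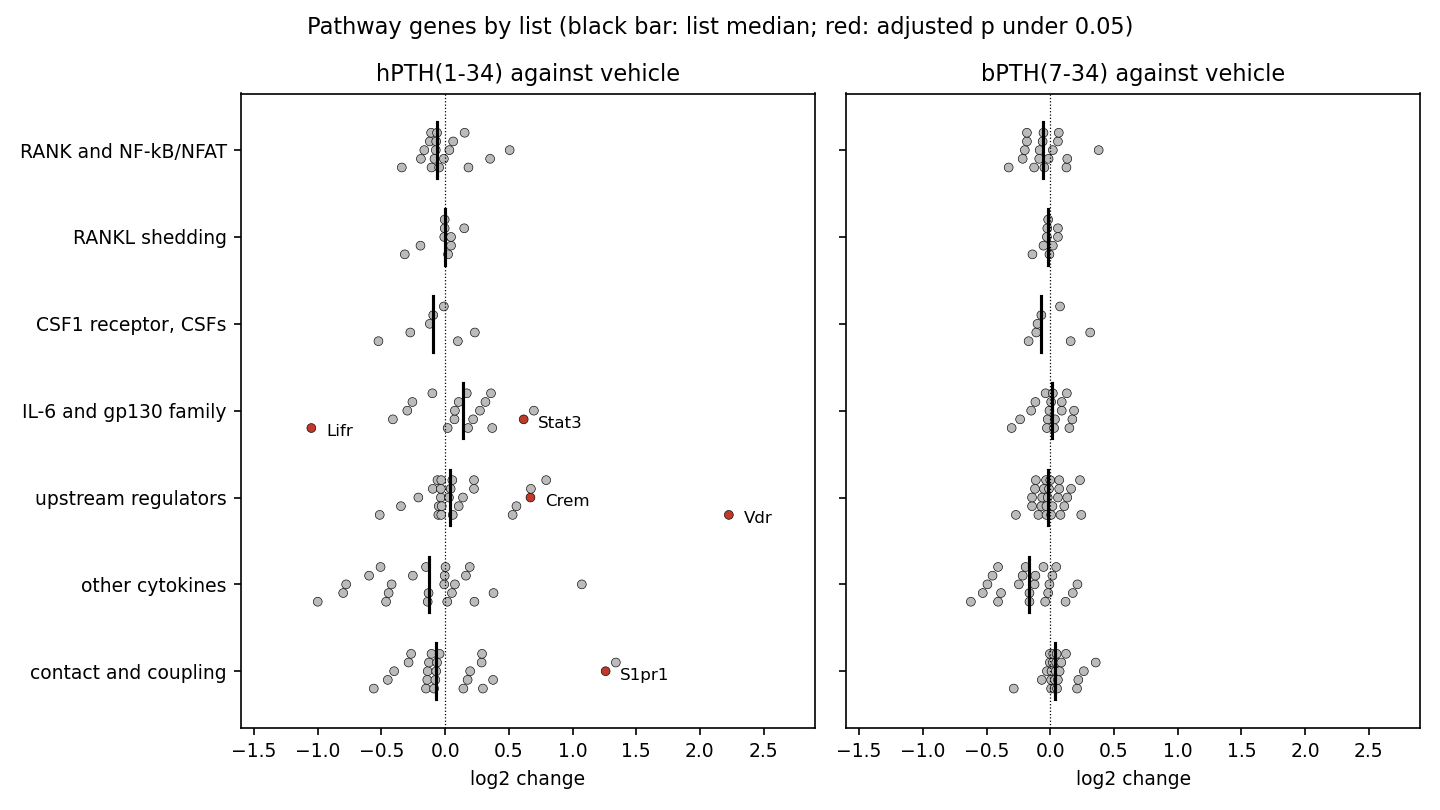
Log2 change (x axis) of each measured gene of the 7 lists (rows), for hPTH(1-34) and bPTH(7-34) against vehicle; a point is a gene, a black bar a list's median, and red marks an adjusted p under 0.05. With hPTH(1-34), Vdr (2.23), S1pr1 (1.26), Crem (0.67) and Stat3 (0.62) lie to the right and Lifr (-1.05) to the left, and with bPTH(7-34) no gene is red.

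The genes whose levels most resembled each of the 4 over the 9 arrays were found among 7032 genes with a mean log2 level of at least 4. The measure was Pearson's r, given without a test because each list is the top of a search. The arrays share their groups, so the value after removing group means (within groups) is given as well. Whether treatments shared preparations is not given, and removing group means would not remove an effect of a preparation. For Tnfsf11 these were Bdkrb1 (r = 0.984, within groups 0.932), a bradykinin receptor, Chst11 (0.982, 0.902), a chondroitin sulfotransferase, Vdr (0.98, 0.961), the chemokine Cxcl14 (0.977, 0.893) and Ogdh (0.976, 0.897), a subunit of the oxoglutarate dehydrogenase complex. Bdkrb1 rose by 1.33 ± 0.17, Chst11 by 1.96 ± 0.31 and Cxcl14 by 1.87 ± 0.30 with hPTH(1-34), with adjusted p by limma from 0.0204 to 0.0423. On leaving out an array these reached 0.123, 0.197 and 0.202. Ogdh had the same shape at a small size, 0.26 ± 0.09 (adjusted p = 0.389).

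For Tnfrsf11b the 5 genes were Prrx2 (r = 0.957, within groups 0.876), a homeobox factor of mesenchyme, Yju2 (0.952, 0.936), Klhdc8a (0.927, 0.954), Fto (0.917, 0.868), an RNA demethylase, and Gas1 (0.912, 0.845), with changes of 0.14 to 0.21 with bPTH(7-34) and adjusted p of 0.999. For Csf1 they were Irf1 (0.99, 0.983), an interferon-induced transcription factor, Parp8 (0.984, 0.975), Slamf8 (0.982, 0.98), a receptor of myeloid cells, Calhm6 (0.978, 0.961) and Dhx58 (0.975, 0.979), a sensor of viral RNA. These changed by -1.02 to -0.43 with hPTH(1-34) and did not pass. Their values followed single arrays: hPTH(1-34) array 1 lay near the vehicle arrays and array 3 far below, as for Csf1. For Il6 they were Ptprj (0.958, 0.94), a receptor phosphatase, Steap1 (0.956, 0.963), Dcp1a (0.956, 0.861), which takes part in mRNA decapping, Naa25 (0.946, 0.935) and the cytochrome c gene Cycs (0.945, 0.876). Their changes with hPTH(1-34) were 0.16 to 0.46, none of them called, and all 5 were lowest in bPTH(7-34) array 3, the array in which Il6 was lowest.

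**Figure D5:**
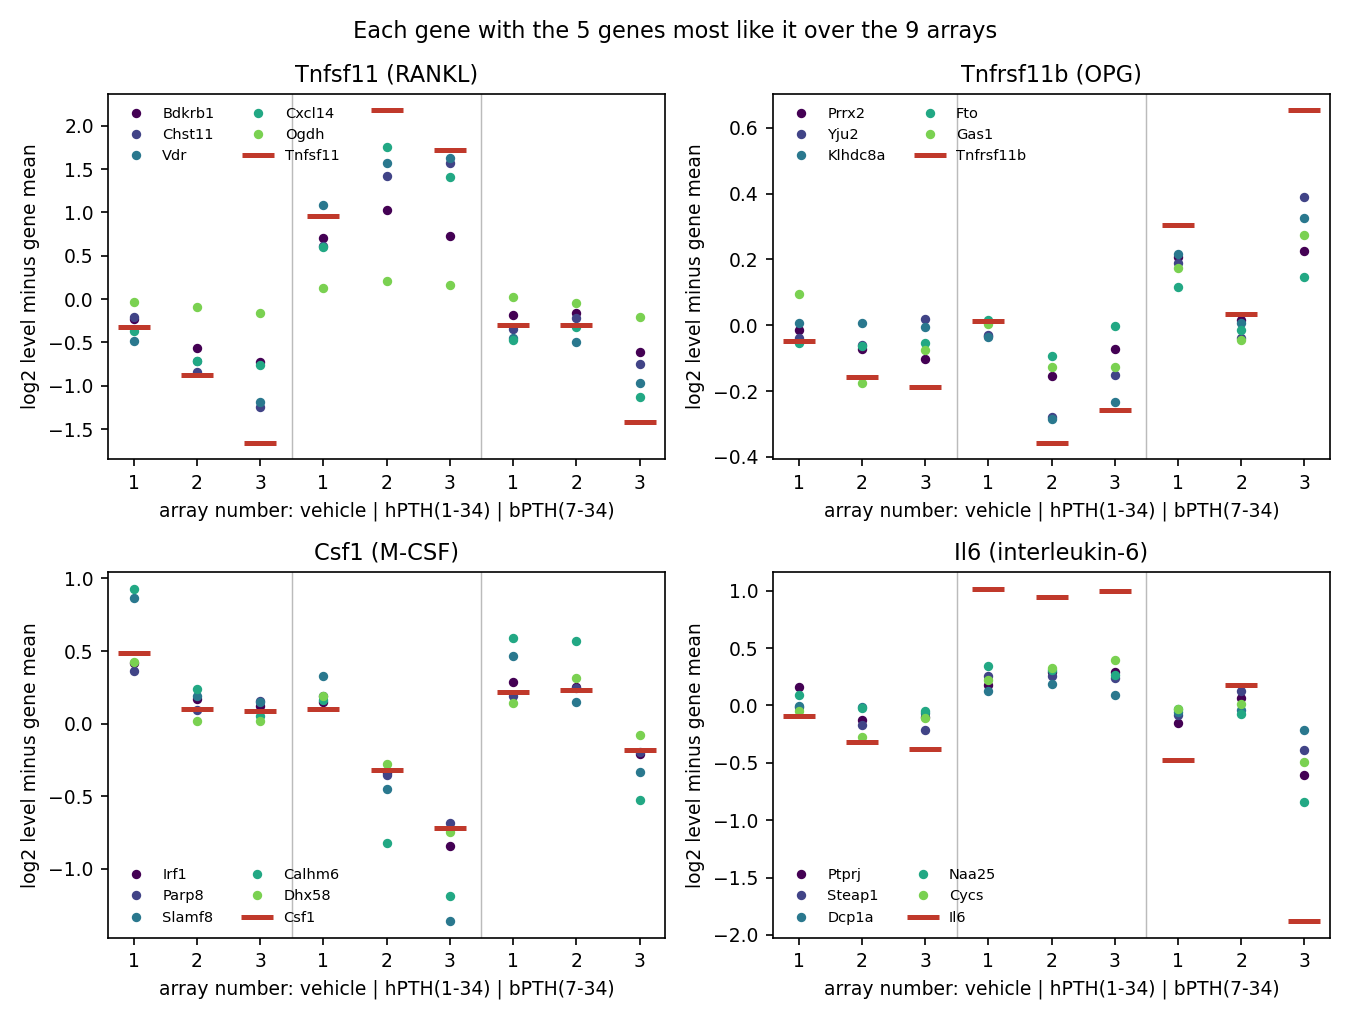
Log2 level minus the gene's mean over the 9 arrays (y axis), for each of the 4 genes (red bars) and the 5 genes most like it (points), by array number within each group (x axis). The Tnfsf11 panel is set by the 3 high hPTH(1-34) arrays, whereas the Tnfrsf11b and Il6 panels are marked by bPTH(7-34) array 3 and the Csf1 panel by hPTH(1-34) array 3.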

How the data were processed

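RNA was measured on 9 Affymetrix Mouse Gene 2.0 ST arrays, 3 per group, from 100 ng of total RNA. The deposited values are log2 levels by transcript cluster, with 2 decimals; per the submitters' processing notes, the authors used Affymetrix Expression Console and RMA. Versions and genome build are not given in the sources used here. Scanner files were not used here.

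Of 41345 clusters, 23521 had exactly 1 gene symbol in the platform annotation and were tested. A gene was read from its brightest cluster. Groups were compared with limma 3.58.1 under R 4.3.3 (lmFit, eBayes; 1 fit of all 9 arrays, group as the only term, two-sided, Benjamini-Hochberg adjustment over the 23521 clusters, threshold 0.05). Errors beside changes are SE and beside levels SD. Arrays have no read depth, and their number limits the precision. In data simulated for hPTH(1-34) against vehicle (23521 clusters, 200 changed), log2 changes of 0.5, 1 and 2 were recovered in 22.6%, 73.9% and 97.4% of cases, and 5.25% of calls were false. The changed clusters were picked at random, and values were drawn independently for each array at the cluster's own spread. These rates are averages over clusters with a median residual SD of 0.17. They do not hold for Tnfsf11 and Il6, whose residual SDs were 0.65 and 0.62.

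The 4 genes, the lists and the tests were chosen with earlier results of these data known, so the lists give no independent support. Genes named beside the 4 were each list member that passed, the 3 of each list with the smallest p for hPTH(1-34), 14 fixed genes, and the 5 most like each of the 4. The motifs were chosen with the sequences in view. Some listed genes were not analysed here, among them Traf3, Chuk, Nfkb1, Runx2, Fosl1, Tcf7 and Spp1. The alternatives comprised all clusters, the array number as a block, filters at a mean log2 of 3 or 5, 1 cluster per gene, quantile or median normalisation, a trended robust eBayes, array weights, leaving out each array in turn, and fitting a comparison's 6 arrays alone. Plots were drawn with matplotlib 3.10.9.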

Additional observations from a re-analysis of the deposited data

How the results depend on the processing

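Tnfsf11 kept its direction against vehicle with hPTH(1-34) in all 20 alternatives, with an adjusted p of 0.0172 to 0.209 and an unadjusted p of at most 0.00121. It missed the threshold in the 6 arrays alone (2.57, adjusted p = 0.156), over all clusters (2.57, 0.133) and in 7 of 9 fits without 1 array (changes of 2.22 to 2.90). Between the peptide groups it passed with array weights (2.42), at a mean log2 of at least 3 or 5 (2.29 each) and in 1 of 9 fits without an array (1.92 to 2.62). Il6 with hPTH(1-34) passed in 1 fit without an array (1.20 to 1.34). Signs turned within the ranges without 1 array for Il6 (-0.91 to 0.12), Tnfsf11 (-0.073 to 0.65) and Tnfsf11 minus Tnfrsf11b (-0.52 to 0.36) with bPTH(7-34), and for Tnfrsf11b with hPTH(1-34) (-0.18 to 0.0083). Csf1 changed neither side nor sign in any alternative, but its size ranged from -0.75 to -0.34 with hPTH(1-34) and from -0.21 to -0.0017 with bPTH(7-34) without 1 array.

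With hPTH(1-34) against vehicle, 106 clusters were called, but 0 in the 6 arrays alone, 16 over all clusters, 166 with array weights, 186 and 182 at a mean of at least 3 and 5, and 0 to 259 without 1 array. Between the peptide groups the counts were 109, 0, 3, 204, 215 and 211, and 2 to 262. With bPTH(7-34) against vehicle the count was 0 throughout. The 90th percentile put the background limit at 1.45. The causes of these shifts were not tested.

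Arrays with one number did not all pair: 6 of 9 pairs of deviations correlated above 0.1 (0.0646 to 0.364), and 8 of 9 arrays correlated best with their own number, a hint from the data. With the replicate block, counts were 112 and 116 (fixed) or 127 and 149 (random) for hPTH(1-34) against vehicle and bPTH(7-34), and Tnfsf11 kept its call against vehicle (adjusted p = 0.046 and 0.0364). Under the fixed block Crem, Stat3, Chst11 and Cxcl14 missed the threshold against vehicle and Vegfa passed it, and Stat3 missed it between the peptide groups. The SE of the Csf1 change with hPTH(1-34) against vehicle was 0.13 under the fixed block. That change had an unadjusted p of 0.00338 by limma and still did not pass (adjusted p = 0.164).

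Against vehicle, Sik3, Sphk1 and Vegfa each passed with hPTH(1-34) in some alternatives, at an adjusted p down to 0.0212, 0.0101 and 0.0234. Among other genes, signs turned near 0 with hPTH(1-34) against vehicle. Without 1 array the ranges were -0.25 to 0.33 for Csf1r, -0.075 to 0.39 for Csf3, -0.092 to 0.043 for Gas1, -0.11 to 0.053 for Mmp14, -0.05 to 0.01 for Prrx2, -0.21 to 0.25 for Socs3, -0.017 to 0.33 for Timp1 and -0.24 to 0.27 for Tnfsf10, and Fto reached -0.0035 under quantile normalisation. The dimmer-cluster alternative could not be run, because each of the 4 genes has 1 cluster, and Tnfrsf11b, with a mean under 5, has no value under that filter. With 3 arrays per group, changes under 1 on the log2 scale were often missed in the simulated data.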

Other observations

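Il1a and Il1b, inflammatory cytokines picked here after their values were seen, varied more between the peptide-treated arrays than between the vehicle arrays. The SD of Il1b, which encodes interleukin-1β, was 0.18 with vehicle, 1.25 with hPTH(1-34) and 1.34 with bPTH(7-34), and that of Il1a was 0.24, 1.31 and 1.12. Their changes with hPTH(1-34) were -0.78 ± 0.70 and -1.0 ± 0.67 SE (adjusted p = 0.786 and 0.701 by limma), and that of Tnf was -0.80 ± 0.66 (adjusted p = 0.764), with an SD of 0.57, 1.34 and 0.94 in the 3 groups. The summed macrophage markers ranged from 214 to 459 with vehicle, 134 to 488 with hPTH(1-34) and 152 to 355 with bPTH(7-34). Neither the spread itself nor the part of these cells in it was tested. Fosl2, which encodes an AP-1 subunit, was likewise picked after its value was seen. It was 0.67 ± 0.14 higher with hPTH(1-34) without overlap of the arrays (adjusted p = 0.099) and changed by 0.02 ± 0.14 with bPTH(7-34). Against vehicle, 6.08% of all clusters were higher with hPTH(1-34) without overlap.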
